A study of Mus musculus with 6 samples.

Results

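The 8 genes *Greb1*, *Nrip1*, *Ctsd*, *Xbp1*, *Tgfa*, *Ccnd1*, *Myc* and *Bcl2* are known as targets of estrogen receptors in reproductive tissue, and they were chosen by name. Their values were read in *Kiss1* cells of the medial amygdala (MeA) from RNA bound to tagged ribosomes. The deposited table gives log2 CPM (read counts scaled to the size of each library) for 13886 genes, and 8 of the 8 are among them. The question was how these genes were expressed in MeA *Kiss1* cells and whether estradiol (E2) changed their levels.

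Estradiol binds the nuclear receptors ERα, encoded by *Esr1*, and ERβ, encoded by *Esr2*. The receptors bind estrogen response elements in DNA, or are tethered to DNA by other transcription factors, and recruit coactivators and corepressors. In uterus, mammary gland and breast cancer cells the 8 genes are commonly used as readouts of this pathway. They act in chromatin regulation (*Greb1*, *Nrip1*), protein breakdown and folding (*Ctsd*, *Xbp1*), growth and the cell cycle (*Tgfa*, *Ccnd1*, *Myc*) and cell survival (*Bcl2*).

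All libraries came from Kiss1Cre+/Rpl22HA+/+ female mice, in which Cre recombinase under the control of *Kiss1* puts a hemagglutinin (HA) tag on the ribosomal protein Rpl22. Every female was ovariectomized (OVX) at 8 weeks of age, was then given E2 for 4 days so that Cre was expressed, and had 7 days without E2. The OVX group received nothing further, and the E2 group received an E2 capsule for 5 days. There were 3 libraries per group, each from the MeA punches of 1 pool of 4 brains, so that 12 brains stand behind each group. The tag marks a cell that has expressed Cre, and the 6 libraries are all from the immunoprecipitate. Libraries of the whole punch or of Cre-negative mice were not sequenced, so enrichment over the punch cannot be measured. In such bulk samples fewer cells of a type and less RNA per cell cannot be told apart.

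The scaled library sizes ran from 28.1M to 34.2M, and the correlation between libraries across genes was 0.977 to 0.989. *Kiss1* (gene model ENSMUSG00000115958) was at a log2 CPM of 2.29, 1.82 and 1.13 in OVX replicates 1, 2 and 3 and of 3.72, 3.80 and 3.45 in the E2 replicates, so the gene that drives Cre was read in every library and rose with E2 (log2 difference 1.91, SE 0.26, adjusted p = 0.00475 with limma). Another *Kiss1* gene model, ENSMUSG00000116158, overlaps this one in position on the same strand. It was at -5.82, -0.65 and 0.10 in OVX and 2.97, 3.18 and 2.65 in E2 libraries. Its difference was 5.05 (SE 1.09, adjusted p = 0.0942 with limma), and how reads were split between the models is not known. The 6 neuron markers summed to 4272 to 4632 CPM per library. Markers of other cell types were also read in every library, with 0 of them at 0, and the 8 astrocyte markers summed to 944 to 1154 CPM in OVX and 1091 to 1299 CPM in E2 libraries.

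In MeA *Kiss1* cells, 0 of the 8 genes differed between E2 and OVX females at an adjusted p under 0.05 with limma, where 0.288% of all 13886 genes did (32 higher and 8 lower with E2). *Greb1* had the largest difference of the 8, with a mean 2.97-fold higher with E2, and *Ctsd* had a mean level with E2 that was 0.866 times that in OVX. At an unadjusted p under 0.05 these 2 of the 8 genes were found, against 8.56% of all genes. The E2 and OVX libraries did not overlap for the same 2 genes, against 13.7% of all genes. Fitting with voom weights on counts rebuilt from the log2 CPM also gave 0 of the 8 genes at an adjusted p under 0.05. The smallest two-sided p that an exact permutation of 3 against 3 libraries allows is 0.1.

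**Figure D1:**
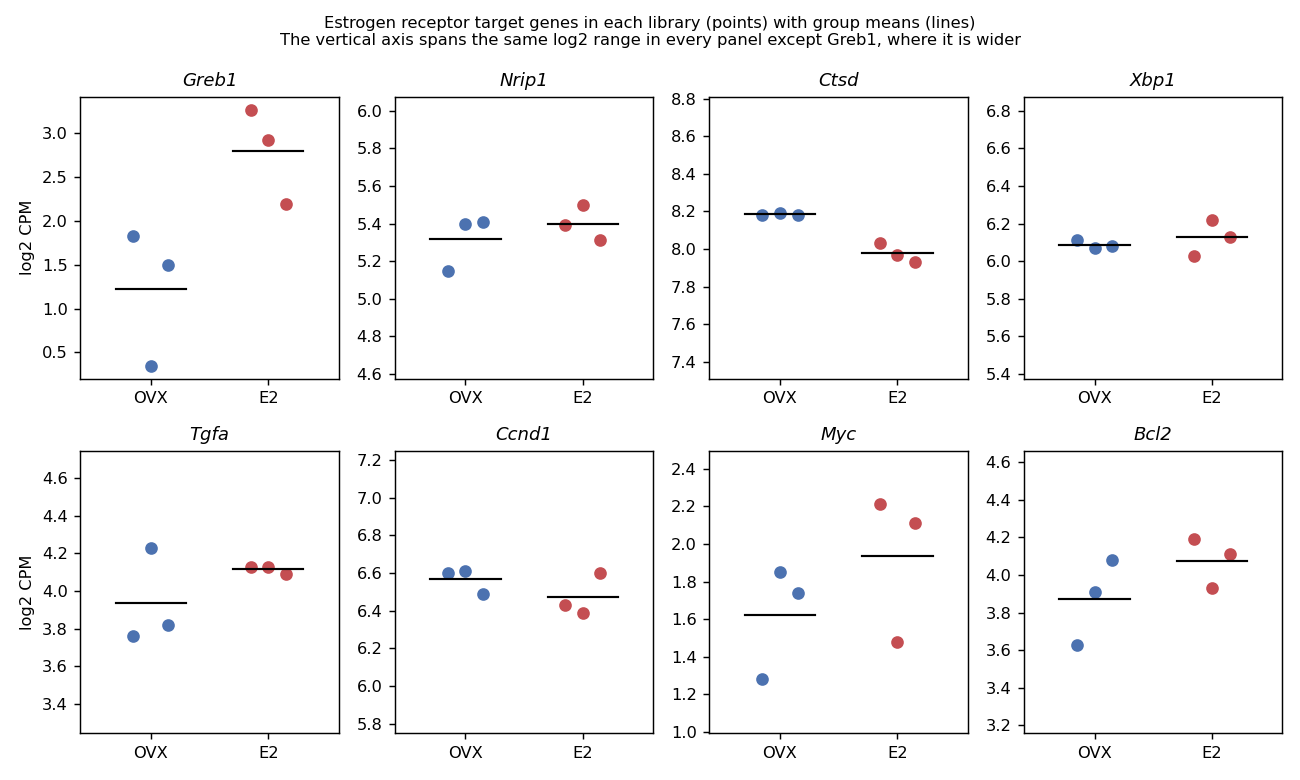
Log2 CPM of the 8 genes in each library (points; replicates 1, 2 and 3 from left to right) of OVX (blue) and E2 (red) females, with group means as lines; each panel has its own vertical range. The groups are apart for *Greb1*, from 0.35 to 1.83 in OVX and 2.19 to 3.27 in E2 libraries, and for *Ctsd*, and they overlap for the other 6 genes.

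*Greb1* (ENSMUSG00000036523, chromosome 12 from 16670615 to 16800886, minus strand, GRCm38) encodes a chromatin factor that binds ERα and is among the genes most strongly induced by estrogen in breast cancer cells. Its log2 CPM was 1.83, 0.35 and 1.50 in OVX replicates 1, 2 and 3 and 3.27, 2.93 and 2.19 in E2 replicates 1, 2 and 3. All E2 libraries were above all OVX libraries, and the gap between the highest OVX and the lowest E2 library was smaller than the range within either group. The mean was 1.23 ± 0.78 (SD, n = 3) for OVX females, against 2.80 ± 0.56 (SD, n = 3) with E2. The log2 difference was 1.57 (SE 0.37, 95% confidence interval 0.77 to 2.37), with an unadjusted p of 0.000895 in limma, rank 89 of all genes, and an adjusted p of 0.14.

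In linear units *Greb1* was at 3.55, 1.27 and 2.83 CPM in OVX and at 9.67, 7.64 and 4.55 CPM in E2 libraries. Counts rebuilt from these values were 100, 43 and 79 reads in OVX and 292, 259 and 147 reads in E2 libraries, so the gene was read at low depth. An absolute difference at least as large was found in 35 other genes, of which 2 were past the threshold. Its adjusted p was 0.0609 without E2 replicate 3, its lowest E2 library, and 0.469 without E2 replicate 1, its highest. The exons of *Greb1* share 736 bases with Gm48140, an antisense gene model, and the libraries were unstranded, so reads there cannot be told apart.

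The bases before the transcription starts of *Greb1* and *Ctsd*, the genes whose groups did not overlap, are shown because an estrogen receptor can bind near a target's start. RefSeq promoters (GRCm38.p6), each a window of 250 bases before to 50 bases after a start, were found for 6 of the 8 genes, with 8 starts in all. *Ccnd1* and *Myc* had no entry and were not searched. The printed stretches are the 250 bases before the start, 5′ to 3′ on the minus strand, and capitals mark GGTCA, an arm of the estrogen response element, on either strand (TGACC on the other strand).
Greb1, chr12:16800887-16801136: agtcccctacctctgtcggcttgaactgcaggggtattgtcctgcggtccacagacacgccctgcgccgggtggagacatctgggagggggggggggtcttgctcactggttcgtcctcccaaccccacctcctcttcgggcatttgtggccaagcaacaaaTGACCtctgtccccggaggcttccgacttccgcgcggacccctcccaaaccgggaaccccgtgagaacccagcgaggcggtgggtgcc
Greb1, chr12:16757240-16757489: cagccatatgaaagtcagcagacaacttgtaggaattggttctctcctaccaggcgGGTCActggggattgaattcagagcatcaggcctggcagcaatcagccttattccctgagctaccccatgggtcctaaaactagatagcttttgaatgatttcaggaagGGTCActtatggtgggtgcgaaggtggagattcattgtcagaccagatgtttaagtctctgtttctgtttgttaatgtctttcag
Ctsd, chr7:142387828-142388077: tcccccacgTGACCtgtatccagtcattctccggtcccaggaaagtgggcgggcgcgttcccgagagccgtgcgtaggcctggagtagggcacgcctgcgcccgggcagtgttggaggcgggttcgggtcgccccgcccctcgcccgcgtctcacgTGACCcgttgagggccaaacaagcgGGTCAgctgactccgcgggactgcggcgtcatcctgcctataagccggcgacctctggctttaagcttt
The stretch at chr12:16800887-16801136 lies before the 5′ end of the *Greb1* gene model, and the one at chr12:16757240-16757489 lies within the gene. The *Ctsd* stretch lies largely within the *Ctsd* gene model, whose 5′ end is at 142388038. Counted back from the start, GGTCA begins at -194 and -85 in the window within *Greb1*, and TGACC begins at -88 in the other. For *Ctsd*, GGTCA begins at -69 and TGACC at -241 and -94.

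The whole element, GGTCANNNTGACC, was in 0 of the 8 windows, which belong to 6 of the 8 genes. It was in 0.07% of 32851 mouse promoters of the same length. Its arm GGTCA, searched on both strands, was in 4 of the 8 windows (*Greb1* with both windows, *Ctsd*, and a window of *Nrip1* at -77), against 40.5% of all promoters. The pattern TGANTCA, which is looser than the AP-1 site TGAGTCA or TGACTCA, was in 0 of the 8 windows, against 7.81% of all promoters. A GC box, GGGCGG, was in 4, those of *Bcl2*, *Ctsd*, *Nrip1* and *Tgfa*, against 35.7%. The matches describe these windows only, and a receptor can bind far from a start.

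*Nrip1* (ENSMUSG00000048490, chromosome 16 from 76287400 to 76373827, minus strand) encodes a corepressor that binds ligand-bound nuclear receptors, the estrogen receptors included. It was at a log2 CPM of 5.15, 5.40 and 5.41 in OVX and 5.39, 5.50 and 5.31 in E2 libraries. The values of the groups were interleaved. The difference was 0.08 (SE 0.09, 95% confidence interval -0.12 to 0.28, adjusted p = 0.879 with limma).

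*Ctsd* (ENSMUSG00000007891, chromosome 7 from 142375911 to 142388038, minus strand) encodes cathepsin D, an aspartyl protease of lysosomes that is present in nearly all cells. Expression was at a log2 CPM of 8.18, 8.19 and 8.18 in OVX and 8.03, 7.97 and 7.93 in E2 libraries. The OVX libraries were almost equal and all E2 libraries were below them. The means were 8.18 ± 0.0024 (SD, n = 3) and 7.97 ± 0.05 (SD, n = 3). The difference was -0.21 (SE 0.05, 95% confidence interval -0.32 to -0.09), with an unadjusted p of 0.00158 in limma, rank 121 of all genes, and an adjusted p of 0.182.

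With 7901 to 9944 rebuilt reads per library, *Ctsd* was the most deeply read of the 8 genes. The difference was -0.23 to -0.19 with each library left out in turn, and its direction was lower with E2 in each of 16 alternative settings, with adjusted p-values from 0.154 to 0.589 in limma. Its exons share 808 bases on the same strand with Gm49369, a protein-coding gene model that the table does not list, and a read in these bases fits both models. *Ctsd* is also abundant in microglia, and 6 of 8 microglia markers had a lower mean with E2. Their summed level was 157 to 193 CPM in OVX and 147 to 169 CPM in E2 libraries, 0 of the 8 were at 0, and their part in the difference of *Ctsd* was not tested.

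*Xbp1* (ENSMUSG00000020484, chromosome 11 from 5520659 to 5525893, plus strand) encodes a transcription factor of the unfolded protein response, which is activated by splicing of its mRNA. In OVX and E2 libraries it was at a log2 CPM of 6.11, 6.07 and 6.08 (OVX) and of 6.03, 6.22 and 6.13 (E2). The lowest and the highest library were both from E2 females. The difference was 0.04 (SE 0.07, 95% confidence interval -0.11 to 0.19, adjusted p = 0.931 with limma). Counts per gene do not tell the spliced from the unspliced mRNA.

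*Tgfa* (ENSMUSG00000029999, chromosome 6 from 86195223 to 86275719, plus strand) encodes transforming growth factor α, a ligand of the EGF receptor. Values of 3.76, 4.23 and 3.82 log2 CPM were found in OVX and of 4.13, 4.13 and 4.09 in E2 libraries. OVX replicate 2 was above every E2 library and the other OVX libraries were below them. The difference was 0.18 (SE 0.14, 95% confidence interval -0.11 to 0.48, adjusted p = 0.789 with limma).

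*Ccnd1* (ENSMUSG00000070348, chromosome 7 from 144929931 to 144939925, minus strand) encodes cyclin D1, which activates the kinases Cdk4 and Cdk6 in the G1 phase of the cell cycle. Its log2 CPM was 6.60, 6.61 and 6.49 in OVX and 6.43, 6.39 and 6.60 in E2 libraries. E2 replicate 3 was at the level of the higher OVX libraries. The difference was -0.09 (SE 0.07, 95% confidence interval -0.24 to 0.06, adjusted p = 0.798 with limma). *Ccnd1* shares 1100 exonic bases with LTO1 on the opposite strand, and LTO1 had a mean log2 CPM of 4.15 and a difference of 0.01 (SE 0.13).

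*Myc* (ENSMUSG00000022346, chromosome 15 from 61985391 to 61990374, plus strand) encodes a transcription factor of growth that binds DNA together with Max. It was at a low log2 CPM of 1.28, 1.85 and 1.74 in OVX and 2.21, 1.48 and 2.11 in E2 libraries, from 68 to 140 rebuilt reads. E2 replicate 2 lay within the OVX range and the other E2 libraries above it. The difference was 0.31 (SE 0.28, 95% confidence interval -0.30 to 0.92, adjusted p = 0.84 with limma), the widest interval of the 8 genes after that of *Greb1*.

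*Bcl2* (ENSMUSG00000057329, chromosome 1 from 106538178 to 106714274, minus strand) encodes an inhibitor of apoptosis at the mitochondrial membrane. Its log2 CPM was 3.63, 3.91 and 4.08 in OVX and 4.19, 3.93 and 4.11 in E2 libraries. OVX replicate 3 was within the E2 range. The difference was 0.20 (SE 0.14, 95% confidence interval -0.10 to 0.50, adjusted p = 0.761 with limma). *Bcl2* shares 558 exonic bases with the antisense gene model D630008O14Rik, and *Tgfa* shares 118 with Gm43917.

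Of the 8 genes, 6 had a higher and 2 a lower mean with E2. Their median log2 difference was 0.13, against 0.0034 for all genes, and the median of its absolute size was 0.19, against 0.09. Without OVX replicate 1 the median was 0.07. That library was the lowest of its group for *Nrip1*, *Tgfa*, *Myc* and *Bcl2*.

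**Figure D2:**
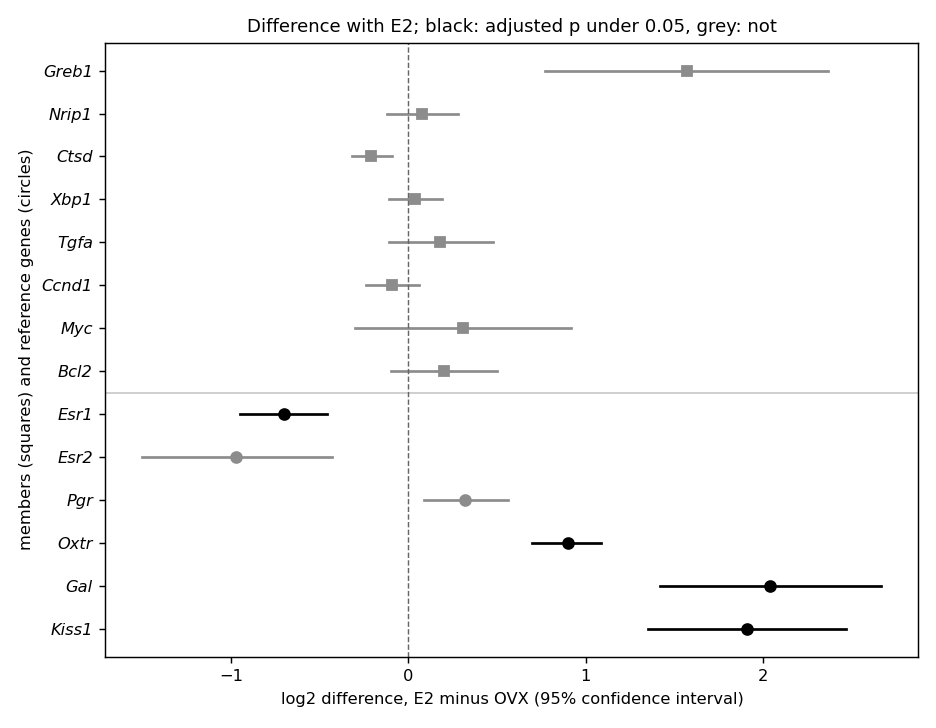
Log2 difference of E2 minus OVX with its 95% confidence interval for the 8 genes (squares) and for chosen reference genes (circles). The circles are *Esr1*, *Esr2*, *Pgr*, *Oxtr*, *Gal* and the *Kiss1* gene model ENSMUSG00000115958. The other estrogen receptor and estradiol-responsive brain genes of the lists, none past the threshold, are not shown. Black marks an adjusted p under 0.05 in limma over all genes. The intervals of *Greb1* (0.77 to 2.37) and *Ctsd* (-0.32 to -0.09) lie on either side of 0, those of the other 6 genes include 0, and none of the 8 is black.

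The levels of the genes were compared per kilobase of the longest transcript, since a long transcript gives more reads. On this scale *Ctsd* was the highest, with a mean log2 CPM per kilobase of 6.99 over the 6 libraries, rank 390 of the 13881 genes with a transcript length. *Xbp1* followed at 5.02 (rank 2095) and *Ccnd1* at 4.62 (rank 2807). Lower levels were found for *Nrip1* at 2.38 (rank 8410), *Tgfa* at 1.85 (rank 9593) and *Bcl2* at 1.13 (rank 10829). *Myc* at 0.55 (rank 11665) and *Greb1* at -1.0 (rank 13259) were the lowest.

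The ranges over libraries of neighbours in this order did not overlap from *Ctsd* to *Bcl2*. Those of *Bcl2* (0.79 to 1.34) and *Myc* (0.05 to 0.99) overlapped, as did those of *Myc* and *Greb1* (-2.66 to 0.26). The gene with the largest difference was therefore the lowest in level per kilobase, and its SD over the 6 libraries (1.05) was the largest of the 8. That SD includes the difference between the groups.

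**Figure D3:**
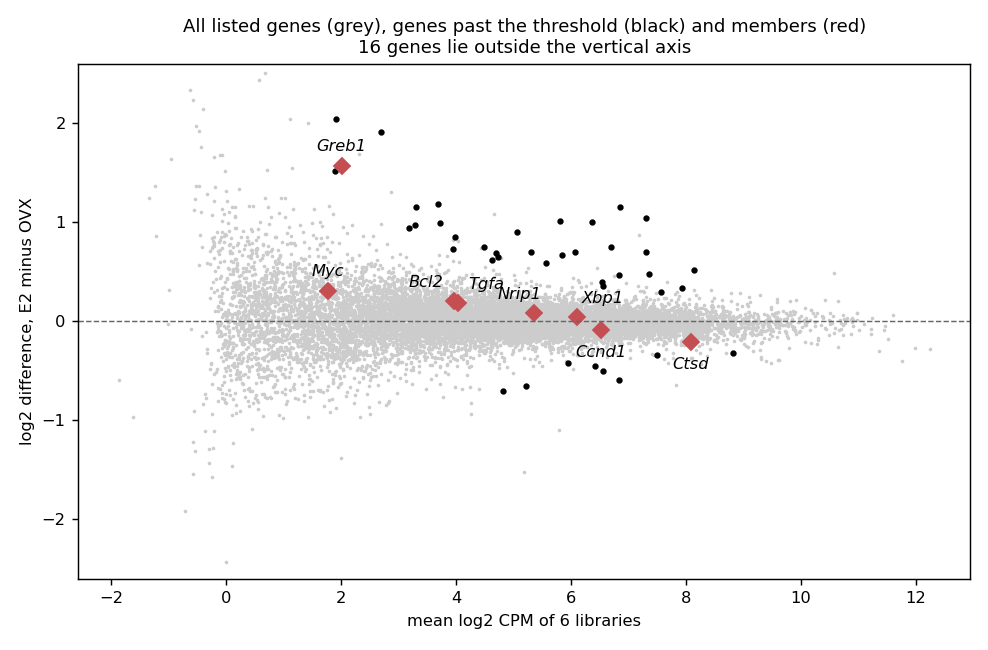
Log2 difference of E2 minus OVX against mean log2 CPM of the 6 libraries for all 13886 genes (grey; 16 genes lie outside the vertical axis), with the 40 genes past the threshold in black and the 8 estrogen receptor targets as red diamonds. *Greb1* stands at a mean of 2.01 and a difference of 1.57, where the grey cloud is wide, and *Ctsd* at 8.08 and -0.21, where it is narrow.

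The genes whose log2 CPM over the 6 libraries was most like that of *Greb1* were *Tmem266* (Pearson r = 0.99), *P2rx5* (r = 0.982) and *Rbbp8* (r = 0.981). These values describe 6 libraries of 2 groups, which share the treatment and the depth of each library. *Tmem266* was at 3.36, 3.17 and 3.28 in OVX and 3.47, 3.43 and 3.35 in E2 libraries, a much narrower range than that of *Greb1*. *P2rx5* differed by 0.77 (SE 0.37, adjusted p = 0.6 with limma) and *Rbbp8* by 0.47 (SE 0.25, adjusted p = 0.643).

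The receptors themselves were read in the same libraries. *Esr1* was at 5.25, 4.93 and 5.30 log2 CPM in OVX and 4.62, 4.39 and 4.35 in E2 libraries, and it fell with E2 (log2 difference -0.70, SE 0.12, adjusted p = 0.0189 with limma). The call was lost without OVX replicate 1 (adjusted p = 0.101), without OVX replicate 3 (0.0827), without E2 replicate 2 (0.101) and without the mean-variance trend (0.407), and the difference was between -0.82 and -0.63 in these and the other settings. *Esr2* was at 2.66 to 3.09 in OVX and 1.38 to 2.20 in E2 libraries (difference -0.97, SE 0.25, adjusted p = 0.191). *Gper1*, which encodes a membrane receptor for estrogen, differed by 0.03 (SE 0.43).

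Another 24 genes known as estrogen targets in reproductive tissue were looked up by symbol, and 16 were found. Not found under these symbols were *Tff1*, *Areg*, *Ltf*, *C3*, *Ca12*, *Tnfsf11*, *Pdzk1* and *Krt19*, several of them classic markers of estrogen action in breast or uterus. The deposited symbols give carbonic anhydrase genes the prefix Car, as in *Car4*. The gene of *Ca12* may therefore be listed under such a symbol, which was not looked up. The table holds only genes above the authors' minimum, so the level of an unlisted gene is not known. Of the 16 listed genes, 0 were past the threshold with limma, against 0.288% of all genes. An unadjusted p under 0.05 was found for 1, against 8.56% of all genes. A higher mean with E2 was found for 11 (median difference 0.07), against 7089 of all 13886 genes. The 1 gene with an unadjusted p under 0.05 was *Pgr*, the progesterone receptor. *Pgr* was at 4.61, 4.32 and 4.61 in OVX and 4.96, 4.79 and 4.77 in E2 libraries (difference 0.32, SE 0.11, adjusted p = 0.392). The next by p were *Rara*, a retinoic acid receptor (difference 0.25, SE 0.15), and *Cited1*, a coactivator (difference 0.58, SE 0.36).

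Genes known to respond to estradiol in brain were read for comparison, as 9 gene models of 8 symbols. In this list 3 were past the threshold and higher with E2 (*Kiss1*, *Gal* and *Oxtr*) and 1 was lower (*Esr1*), where 0.288% of all genes were past it. Not past it in limma were *Th* (difference 0.80, adjusted p = 0.537), *Cartpt* (0.14, adjusted p = 0.927) and *Penk* (0.10, adjusted p = 0.837). *Pgr* and the *Kiss1* gene model ENSMUSG00000116158 were not past it either. *Gal*, which encodes the neuropeptide galanin, stood at 1.26, 0.44 and 1.01 in OVX and at 3.23, 3.13 and 2.48 in E2 libraries, and it rose (difference 2.04, SE 0.29, adjusted p = 0.00609). Within each group the libraries had the same order for *Gal* and *Greb1*, with OVX replicate 2 and E2 replicate 3 the lowest. *Gal* was not past the threshold without E2 replicate 2 (adjusted p = 0.0705). *Oxtr*, the oxytocin receptor, rose by 0.90 (SE 0.09, adjusted p = 0.000833). Without the mean-variance trend 0 of these genes were past the threshold. The list was chosen with results of these libraries known, so its count is not independent of them.

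The pathways of the 8 genes were followed with 7 lists of 108 genes in all, of which 98 were listed. Past the threshold in limma were 0 of the 98, against 0.288% of all genes, and 9 had an unadjusted p under 0.05, against 8.56% of all genes. The median difference of the 98 was -0.05, against 0.0034 for all genes.

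Of 16 coregulators, 14 were listed, 11 had a lower mean with E2 (median -0.07) and 4 had an unadjusted p under 0.05, where 8.56% of all genes did. *Ncor1*, a corepressor like *Nrip1*, differed by -0.20 (SE 0.07, adjusted p = 0.429), the coactivator *Ncoa1* by -0.17 (SE 0.06, adjusted p = 0.463) and the acetyltransferase gene *Ep300* by -0.16 (SE 0.07, adjusted p = 0.552). *Greb1l*, the paralog of *Greb1*, differed by 0.01 (SE 0.19). The pioneer factor genes *Foxa1* and *Gata3*, which open chromatin for ERα in breast cells, were not listed.

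All 15 genes of the lysosomal protease list chosen beside *Ctsd* were listed, with a median of -0.02 and 9 lower with E2 in the mean. The list is not made of proteases only, since it also holds prosaposin, lysosomal membrane proteins and a protease inhibitor. *Ctso* differed by 0.29 (SE 0.13, adjusted p = 0.538), *Psap*, the gene of prosaposin, by -0.13 (SE 0.06, adjusted p = 0.6) and *Ctss* by -0.27 (SE 0.13, adjusted p = 0.606). All 16 genes of the unfolded protein response beside *Xbp1* were listed, with a median of -0.01 and 8 in each direction. *Herpud1* differed by -0.15 (SE 0.07, adjusted p = 0.538), *Ddit3* by -0.17 (SE 0.11) and the kinase gene *Eif2ak3* by -0.15 (SE 0.12).

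Of 15 EGF ligands and receptors beside *Tgfa*, 12 were listed and 7 were lower with E2 in the mean (median -0.15). *Egf* had the largest difference of the list (-0.83, SE 0.39, adjusted p = 0.585), at a mean log2 CPM of 0.47, followed by p by the neuregulin *Nrg1* (-0.28, SE 0.17) and the sheddase gene *Adam17* (0.21, SE 0.15). Of 18 genes of the G1 phase beside *Ccnd1*, 17 were listed (median 0.02). *E2f1*, a transcription factor of S-phase entry, differed by -0.32 (SE 0.15, adjusted p = 0.583), and the inhibitors *Cdkn1c* by -0.24 (SE 0.12) and *Cdkn1a* by 0.23 (SE 0.20).

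All 12 genes of the MYC network were listed (median -0.04), with *Mlx* at 0.14 (SE 0.11), *Mycn* at -0.23 (SE 0.19) and *Mnt* at -0.08 (SE 0.07). Of 16 genes of the BCL2 family, 12 were listed and 10 had a lower mean with E2 (median -0.08). *Hrk*, a pro-apoptotic member, was at 6.26, 6.16 and 6.19 in OVX and 5.96, 5.73 and 5.92 in E2 libraries, with no overlap (difference -0.33, SE 0.08, adjusted p = 0.119). *Bok*, also pro-apoptotic, differed by -0.27 (SE 0.13, adjusted p = 0.581) and *Bcl2l2*, an inhibitor, by -0.09 (SE 0.06).

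**Figure D4:**
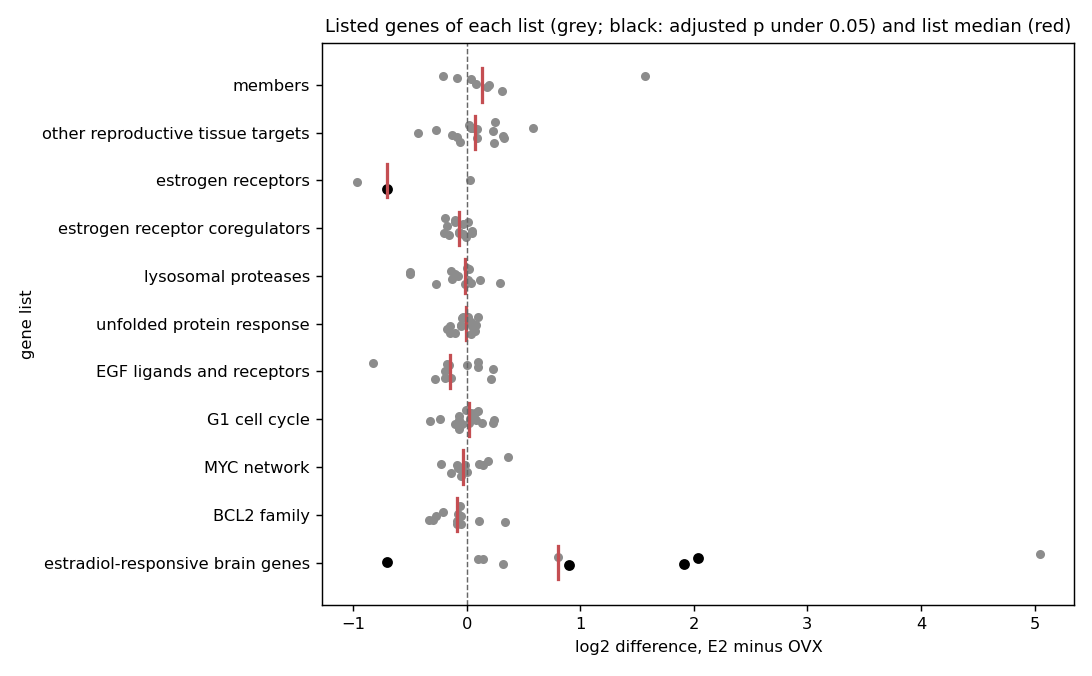
Log2 difference of E2 minus OVX for the listed genes of each list (grey points; black where the adjusted p was under 0.05) with the median of the list as a red line. The medians of the 7 pathway lists lie between -0.15 and 0.02, that of the 8 estrogen receptor targets is 0.13 with *Greb1* far to the right at 1.57, and black points are found only among the estrogen receptors and the estradiol-responsive brain genes, where the point at 5.05 is a gene model of *Kiss1* that did not pass.

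Means of markers of excitatory neurons, glia and vessels were compared as whole lists. The study reported *Slc17a7* (Vglut1), a marker of the excitatory list, in MeA *Kiss1* cells, so that list need not mark other cells. Its mean log2 CPM here was 9.47. All 6 markers of forebrain excitatory neurons had a lower mean with E2, and they summed to 880 to 1137 CPM in OVX and 668 to 871 CPM in E2 libraries. All 8 astrocyte markers and 7 of 8 markers of the oligodendrocyte lineage had a higher mean with E2, and the latter summed to 1332 to 1854 CPM in OVX and 1455 to 2015 CPM in E2 libraries. The 8 endothelial and mural markers summed to 171 to 318 CPM in OVX and 198 to 261 CPM in E2 libraries. None of these markers was at 0 and 0 were past the threshold in limma. An unadjusted p under 0.05 was found for 5 of the excitatory neuron, 2 of the astrocyte, 3 of the oligodendrocyte lineage and 0 of the endothelial and mural markers. Of all genes, 0.288% were past the threshold and 8.56% had an unadjusted p under 0.05. The 8 genes are expressed in several of these cell types, and the part of the markers in their differences was not tested.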

How the data were processed

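RNA was sequenced from the MeA immunoprecipitates of 3 OVX and 3 E2 libraries of Kiss1Cre+/Rpl22HA+/+ females. The authors trimmed reads with Trimmomatic 0.38, aligned them with STAR 2.6.0a and quantified genes with RSEM on GRCm38, limited the genes to protein-coding ones above a CPM minimum, and deposited log2 CPM values made with voom on TMM-scaled library sizes. The library kit was unstranded. The authors' deposited table of their own comparison (fold change, p-value) was not used.

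The log2 CPM of all 13886 genes were fitted with limma 3.58.1 in R 4.3.3, with treatment as the only term and a mean-variance trend, and its two-sided p-values were given the Benjamini-Hochberg adjustment over all genes, with 0.05 as the threshold. Differences are E2 minus OVX on the scale of log2 CPM with the 0.5 reads that voom adds. Counts were rebuilt by taking the lowest value of a library as 0 reads, and reads carried no molecular identifiers. The fit was also run on simulated data with known changes. Gene positions, transcript lengths and shared exons came from GENCODE mouse release M21 (GRCm38), which held 13881 of the genes, and promoters from RefSeq. Each level per kilobase is the log2 CPM minus the log2 of the longest transcript in kilobases.

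The genes named are the 8 targets, every gene of a list past the threshold, the genes with the smallest unadjusted p of each list (up to 3), the estrogen receptors, *Pgr*, *Kiss1*, and the 3 genes most like *Greb1*. *Greb1l*, *Foxa1*, *Gata3*, LTO1, *Car4*, *Slc17a7*, *Th*, *Cartpt* and *Penk* were named besides. The 8 genes and the lists were chosen with earlier results of these data known.

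Alternatives were a fit without the trend, voom weights, robust empirical Bayes, median centring, quantile normalization, a mean log2 CPM of at least 1, a CPM above 1 in all 3 libraries of a group, log2 of CPM plus 1 or plus 0.1, a replicate block, and each of the 6 libraries left out in turn.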

Additional observations from a re-analysis of the deposited data

How the results depend on the processing

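The count of 0 of the 8 genes past the threshold held in all 16 alternative settings. The count over all genes, 40, was 0 without the mean-variance trend and 20 to 66 with each library left out (21 without OVX replicate 1, 26 without E2 replicate 1, 20 without E2 replicate 2 and 66 without E2 replicate 3), and the cause was not tested. The 4 calls in the lists of related genes became 0 without the trend and 2 to 5 with a library left out. The median difference of the 8 genes, 0.13, ran from 0.07 without OVX replicate 1 to 0.17. Directions turned for *Nrip1* without OVX replicate 1 (-0.0038, with 0.12 as the highest value among fits without 1 library) and for *Xbp1* without E2 replicate 2 (-0.0037, highest 0.09), both near 0, and the cause was not tested. *Greb1* had adjusted p-values from 0.0609 to 0.589 over the alternatives.

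With a replicate block, 35 genes were past the threshold, 5 of them lower with E2, and the adjusted p was 0.126 for *Greb1* and 0.518 for *Ctsd*. The numbers were not taken to pair the libraries, since deviations of the same number were correlated at -0.021, -0.12 and -0.083. *Greb1* (43 to 292) and *Myc* (68 to 140) had the fewest rebuilt reads per library of the 8 genes.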
